A study of Mus musculus with 8 samples.

Results

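The response to IFN-gamma was described in wild-type mouse bone marrow derived macrophages, on the 4 wild-type arrays of a series of 8. The arrays that received IFN-gamma were IFN-gamma alone and IFN-gamma plus calcitriol, and those without it were an array labelled untreated and calcitriol alone. This gave 2 pairs, 1 without and 1 with calcitriol (active vitamin D), and each group was 1 array. The cells came from marrow of wild-type mice that was cultured for 7 days in M-CSF (50 ng/ml), the growth factor of this lineage, and treatments lasted 24 to 48 hours with no single time given. The other 4 arrays carried the same treatments in macrophages of mice that lack the vitamin D receptor through the Vdr tm1Rge allele (Vdr-/-), and they entered the fit to share its estimate of the spread. Neither the doses of IFN-gamma and calcitriol nor the age and strain of the mice are given in the sources used here. All 22626 probe sets that are no controls were considered, of which 18058 passed a filter on low signals and were tested, and they held a probe set for 10437 named genes.

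IFN-gamma is the cytokine by which T cells and natural killer cells activate macrophages. It binds a receptor of the chains IFNGR1 and IFNGR2, whose kinases JAK1 and JAK2 phosphorylate a STAT factor that then binds GAS elements (gamma-activated sites) in promoters. Early targets such as the transcription factor gene Irf1 act on a later set of genes through interferon-stimulated response elements (ISRE). Macrophages so activated are known for antigen presentation on MHC molecules and for GTPases that attack the vacuoles of intracellular microbes.

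A value below is the deposited signal of a gene's brightest singly annotated probe set, and where 2 values are given for a side, that of the array without calcitriol comes before that of the array with it. Signals under 15.5, the pooled 25th percentile, were taken as 15.5 in every log2 change, and a gene or probe set was called where limma's adjusted p was below 0.05. The median signal of an array ran from 53.4 to 68.2 over the 8 arrays. The array labelled wild-type calcitriol stood apart, with Pearson's r of 0.741 to 0.781 with the other 7 arrays over the tested probe sets, which are not independent of each other. Next came the Vdr-/- array labelled untreated, with r of 0.770 to 0.809. The wild-type calcitriol array also had the highest 3' to 5' ratio of the Gapdh control, a sign of truncation in the RNA or in its labelled copy. The same ratio of the ThrX control, which is no mouse sequence, was 72.8 there. It was 18.4 on the Vdr-/- array labelled untreated and 2.46 to 4.14 on the other arrays. What raised these ratios was not tested. The Gapdh ratio was 1.04 with IFN-gamma alone against 1.11 on the array labelled untreated, and 1.65 with IFN-gamma plus calcitriol against 7.67 with calcitriol alone. The pair without calcitriol was therefore matched for this ratio and the other pair was not. On the Vdr-/- arrays the ratio was 3.06 with IFN-gamma alone against 4.82 on the array labelled untreated, and 1.07 with IFN-gamma plus calcitriol against 0.853 with calcitriol alone. Vdr went against the labels of the untreated arrays, as its brightest probe set read 5.3 on the wild-type and 63.2 on the Vdr-/- array so labelled. Its other probe set read 6.7 and 90.3 in that order. These are dim values, as those of wild type were under the floor and the Vdr-/- array had a median signal of 65. Counts are therefore also given with these 2 labels exchanged, which puts the ratio of wild type at 1.04 and 1.65 with IFN-gamma, against 4.82 and 7.67 without it. The exchange thus moves this ratio together with the labels, and their parts in the exchanged counts cannot be told apart.

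With IFN-gamma, 142 named genes rose (1.36% of the genes tested) and 75 fell (0.719%), by a median of 2.52 and -1.84 on the log2 scale. Over all probe sets 213 were called higher (1.18%) and 103 lower (0.57%), and 1791 had an unadjusted p below 0.05. The median change of all probe sets was -0.06. All 316 called probe sets moved the same way in both pairs, and on 310 of them the IFN-gamma arrays did not overlap the arrays without it. The test counts disagreement of the pairs as spread, so calls favour pairs that agree, and this accord is no separate support. Signals did not overlap for 13.7% of all genes in the higher direction and for 19.4% in the lower. Leaving out either pair left 1 wild-type array a side and a spread taken from the Vdr-/- arrays alone (1 residual degree of freedom). Limma then made 0 calls, with 2168 unadjusted p below 0.05 without the pair lacking calcitriol and 1148 without the pair with it. Even Cxcl9, whose change stayed at 7.83 and 7.79, then had adjusted p of 0.413 and 0.68, so these fits say nothing about stability. The changes in the 2 pairs were more than 2-fold apart for 61 of the risen genes (43.0%) and 24 of the fallen ones (32.0%), and for 47.4% of all tested genes. When the 2 untreated labels were exchanged, 313 genes (3.0%) were called higher and 161 (1.54%) lower, and they included 128 of the 142 and 69 of the 75. A fit that adds the Gapdh ratio as a covariate called 258, of which 185 were among the 316. In it limma took every spread from a trend with signal over all probe sets, with no weight on a probe set's own residual. Its adjusted p therefore do not reflect how far the values of a single gene scatter. Named genes whose call changed in that fit are given below with its adjusted p. In RNA from a whole culture, fewer cells of a type and less RNA per cell cannot be told apart. No source says whether the arrays came from separate mice. The p-values rest only in part on the disagreement of pairs within each genotype (2 residual degrees of freedom). Limma drew each probe set's spread towards a trend with signal over all probe sets, which it weighted as 21 degrees of freedom. Genes whose pairs disagreed in size, such as Klf6 (0.63 without calcitriol and 3.99 with it), could thus be called. With no intensity trend 7 probe sets were called.

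**Figure D1:**
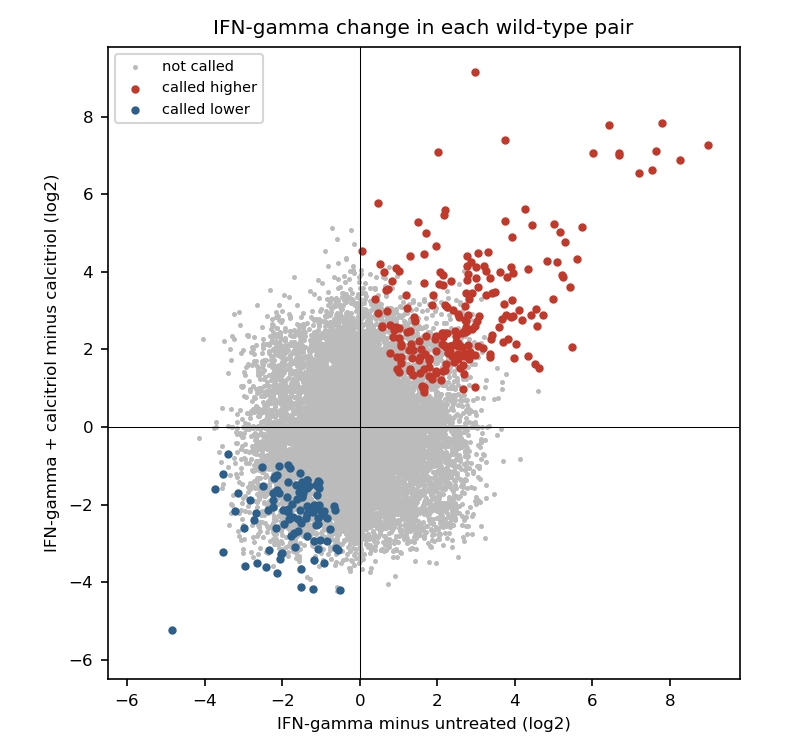
Log2 change with IFN-gamma in the wild-type pair without calcitriol (horizontal axis) and with calcitriol (vertical axis), 1 point for each of 18058 tested probe sets. The 213 probe sets called higher lie in the upper right and the 103 called lower in the lower left, while the grey cloud of the others spreads over all 4 quadrants.

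Promoter sequence was looked at for elements of the pathway. RefSeq promoter windows (GRCm38.p6, 250 bases before to 50 after a gene's start) were matched to 110 of the 142 genes that rose and 65 of the 75 that fell. Searched on both strands were the GAS form TTCNNNGAA and the ISRE-like form, which is GAAA, any 2 bases and GAAA, and matches of these forms may overlap. An ISRE-like match was held by 25 of the 110 risen genes (22.7%), by 4 of the 65 fallen genes (6.15%) and by 338 of 8407 tested genes with a window (4.02%). A GAS match was held by 17 of the risen genes (15.5%), by 7 of the fallen genes (10.8%) and by 709 of the tested genes (8.43%). Of all 32851 windows in the table, 3.44% held the ISRE-like form and 8.3% the GAS form. These shares are descriptions of letters in a window, with no test, and a match is not a shown binding site.

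Among the 15 largest rises, 11 had a window and 6 of these held a match of either form, against 0 of 10 among the 15 largest falls. Shown are the 250 bases before the start of 4 of those genes with a match and of Irf1 and Socs1, the factor and the feedback inhibitor of the pathway, on the gene's strand, with matches in capitals. Gbp2 (chr3:142620413-142620662 on the plus strand) and Gbp2b (chr3:142594597-142594846 on the plus strand) hold the ISRE-like form, which begins 59 and 137 bases before the start. Irgm2 (chr11:58214727-58214976 on the plus strand) holds the GAS form 75 bases and the ISRE-like form 64 bases before the start. Psmb8 (chr17:34197945-34198194 on the plus strand) holds a GAS match 97 bases before the start. Irf1 (chr11:53769764-53770013 on the plus strand), in the first of its 2 windows, holds a GAS match 90 bases before the start. Socs1 (chr16:10785537-10785786 on the minus strand) holds 2 overlapping ISRE-like matches, 83 and 77 bases before the start.
Gbp2: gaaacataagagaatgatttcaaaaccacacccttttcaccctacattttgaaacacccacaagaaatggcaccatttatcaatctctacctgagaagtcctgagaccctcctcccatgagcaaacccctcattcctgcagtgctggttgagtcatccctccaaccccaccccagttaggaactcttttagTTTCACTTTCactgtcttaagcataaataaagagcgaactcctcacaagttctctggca
Gbp2b: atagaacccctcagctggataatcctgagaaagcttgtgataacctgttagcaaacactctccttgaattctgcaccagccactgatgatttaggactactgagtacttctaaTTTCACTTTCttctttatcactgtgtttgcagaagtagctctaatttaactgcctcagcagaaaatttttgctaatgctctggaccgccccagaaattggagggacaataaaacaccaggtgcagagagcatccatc
Irgm2: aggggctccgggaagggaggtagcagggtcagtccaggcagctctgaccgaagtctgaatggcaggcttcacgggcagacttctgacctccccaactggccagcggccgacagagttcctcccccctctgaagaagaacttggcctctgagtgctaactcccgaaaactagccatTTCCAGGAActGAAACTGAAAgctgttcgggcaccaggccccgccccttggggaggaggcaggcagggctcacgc
Psmb8: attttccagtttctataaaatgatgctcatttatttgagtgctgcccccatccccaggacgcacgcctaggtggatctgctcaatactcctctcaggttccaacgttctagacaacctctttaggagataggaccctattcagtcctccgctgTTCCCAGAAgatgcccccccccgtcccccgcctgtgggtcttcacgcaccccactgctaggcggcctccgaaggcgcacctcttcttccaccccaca
Irf1: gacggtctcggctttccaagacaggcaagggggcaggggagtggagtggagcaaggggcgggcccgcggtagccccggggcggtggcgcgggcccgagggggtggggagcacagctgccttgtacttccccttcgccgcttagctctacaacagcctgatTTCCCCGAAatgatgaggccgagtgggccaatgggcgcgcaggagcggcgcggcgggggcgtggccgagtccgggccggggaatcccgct
Socs1: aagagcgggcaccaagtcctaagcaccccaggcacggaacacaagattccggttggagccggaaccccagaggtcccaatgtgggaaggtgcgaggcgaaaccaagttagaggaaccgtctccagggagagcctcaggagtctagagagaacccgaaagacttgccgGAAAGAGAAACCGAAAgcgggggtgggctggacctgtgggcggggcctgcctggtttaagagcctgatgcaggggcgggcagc

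**Figure D2:**
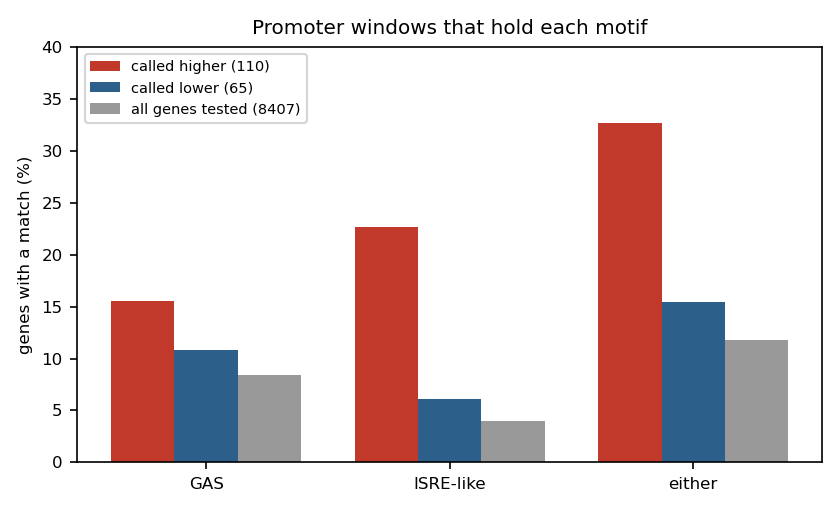
Share of genes with a promoter window (percent, vertical axis) whose window holds the GAS form, the ISRE-like form or either, for genes called higher, called lower and all tested genes. The bars for the ISRE-like form stand at 22.7%, 6.15% and 4.02%.

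Cxcl9, a chemokine that draws activated T cells through the receptor CXCR3, had the largest fitted rise. Its signal was 5633 and 3527 with IFN-gamma, against 25.4 and 5.9 without it, a log2 change of 7.81 (SE 0.39, adjusted p = 2.77e-12). The IFN-gamma arrays were far above the others in both pairs, by 222-fold without calcitriol and by at least 228-fold with it. Acod1, the enzyme that makes itaconate, read 1610 and 2095 with IFN-gamma, against 6.6 and 6.8 without it. Both arrays without IFN-gamma were under the floor, so the rise was at least 118-fold.

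The other large rises included genes outside the classical GTPase and MHC families. AW112010, an interferon-induced transcript of the mouse, read 6583 and 10952 with IFN-gamma, against 101.2 and 82.1 without it (log2 change 6.54). Plbd1, a phospholipase B domain protein, read 1348 and 925.8 with IFN-gamma, against 69.6 and 18.7 without it (log2 change 4.95). Fgl2, a fibrinogen-like protein with prothrombinase activity, read 1017 and 1011 with IFN-gamma, against 27 and 69.8 without it (log2 change 4.55), and its window holds a GAS match 36 bases before the start. In each of these genes both IFN-gamma arrays were above both others.

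**Figure D3:**
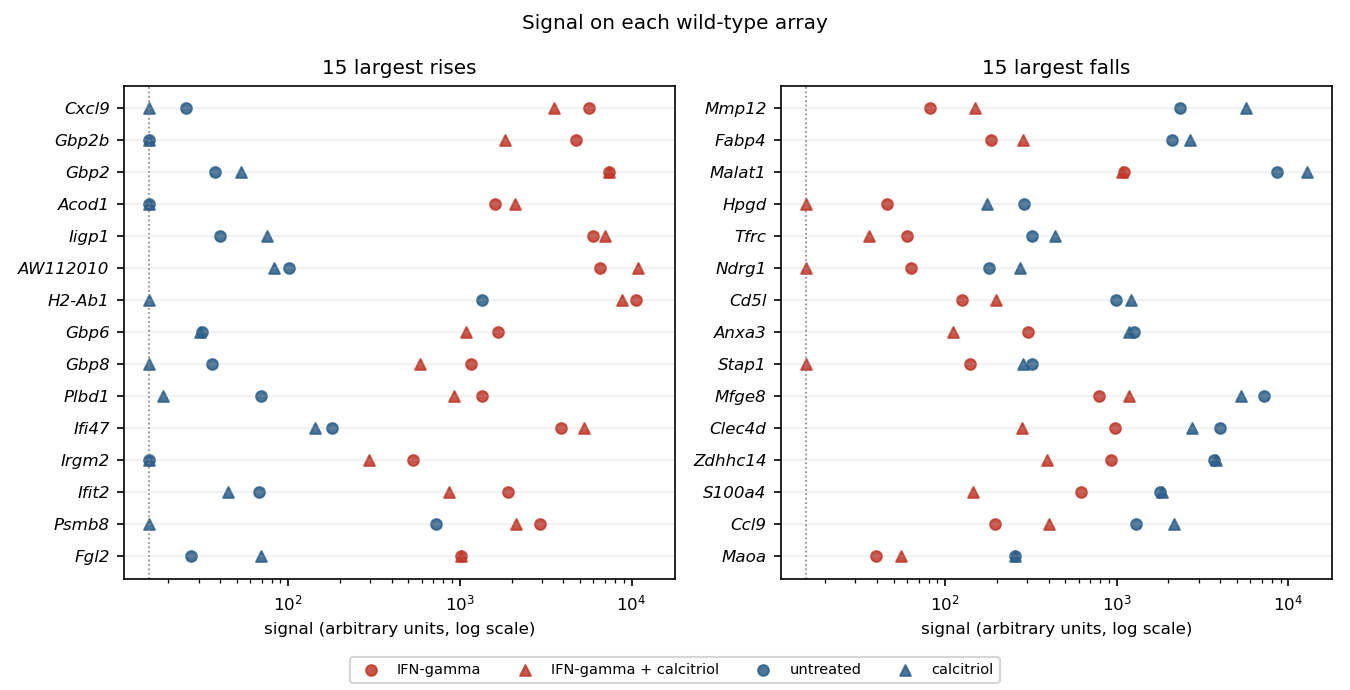
Signal of each wild-type array (horizontal axis, arbitrary units, log scale, values under the dotted floor of 15.5 drawn at it) for the 15 largest called rises and the 15 largest called falls. Red marks IFN-gamma arrays and blue those without it, circles lack calcitriol and triangles have it. Red and blue do not overlap in any of these genes, and the calcitriol array of H2-Ab1 and Psmb8 sits at the floor while the array labelled untreated reads 1352 and 725.3.

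Of 15 tested genes of the receptor and JAK-STAT pathway, 3 rose and 0 fell, and the list's median change was 0.14. The risen members were Socs1 (log2 change 3.56), Stat2 (3.04), which partners other interferon factors, and Ptpn6 (2.50), the phosphatase SHP-1. Stat2 rose 4.24-fold without calcitriol and at least 15.9-fold with it, and its call was lost with the Gapdh ratio as a covariate (adjusted p = 0.244). Socs1, which blocks the JAK kinases, read 289.1 and 295.6 with IFN-gamma, against 39.6 and 7.3 without it. The receptor chains did not pass the test. Ifngr1 read 948.2 and 350.3 with IFN-gamma, against 504.4 and 639.7 without it, so its pairs moved in opposite directions. For Ifngr2 the signals were 848.5 and 451.6 with IFN-gamma, against 760.4 and 416.8 without it (log2 change 0.14, adjusted p = 0.938).

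Among 14 interferon transcription factors, 5 rose and 0 fell, with a list median of 0.97. Irf1 read 4098 and 3349 with IFN-gamma, against 273.7 and 192.8 without it, a log2 change of 4.01 (SE 0.31, adjusted p = 7.34e-09). Its level rose 15-fold without calcitriol and 17.4-fold with it. Ciita, the coactivator that switches on MHC class II genes, read 715.2 and 353.1 with IFN-gamma, against 72 and 4.2 without it (log2 change 3.91, adjusted p = 0.00025). The other risen factors were Batf2 (3.82), Irf7 (2.09) and Irf8 (1.68), the last being a lineage factor of macrophages that already read 932.2 and 1144 without IFN-gamma. Batf2 rose 4.49-fold without calcitriol and at least 44.5-fold with it, and its call was lost with the Gapdh ratio as a covariate (adjusted p = 0.116).

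The listed GTPases of cell-autonomous defence that were tested rose. All 6 tested guanylate-binding proteins were called higher, with a median change of 5.28. Gbp2 read 7396 and 7384 with IFN-gamma, against 37.3 and 52.9 without it (log2 change 7.38, SE 0.35, adjusted p = 1.83e-12). Gbp2b, also known as Gbp1 of the mouse, read 4759 and 1829 with IFN-gamma, against 9.2 and 12.8 without it, a rise of at least 190-fold. Gbp6 (5.45), Gbp8 (5.12), Gbp7 (3.97) and Gbp3 (3.44) were the other tested members. Members of this family are close in sequence, and the probe sets may not separate them fully.

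All 5 tested immunity-related GTPases rose too, with a median change of 4.68. Iigp1, which loads onto parasite vacuoles, read 5961 and 7051 with IFN-gamma, against 40.2 and 75.2 without it (log2 change 6.88). Ifi47 read 3901 and 5256 with IFN-gamma, against 179.2 and 142.9 without it (log2 change 4.82). Irgm2, a regulator of the other members, read 530.2 and 296.8 with IFN-gamma, against 4.7 and 4.4 without it, a rise of at least 25.6-fold. Irgm1 (3.66) and Igtp (3.04) were the remaining tested members.

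Antigen presentation genes rose in both classes. Of 9 tested MHC class II genes, 6 rose and 0 fell (median 2.74). H2-Ab1, the class II A beta chain, read 10618 and 8834 with IFN-gamma, against 1352 and 4.1 without it (log2 change 6.06, adjusted p = 7.94e-06). The size of that change rests on the calcitriol array, as the rise was 7.85-fold in the pair without calcitriol and at least 570-fold in the pair with it. The partner chain H2-Aa read 26083 and 21657 with IFN-gamma, against 3978 and 3194 without it (log2 change 2.74). H2-Eb1 (3.37) and the peptide exchange factor subunit H2-DMa (3.80) rose in both pairs, and H2-Oa rose at least 18.4-fold.

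Cd74, the invariant chain that guards the class II groove, read 19726 and 15207 with IFN-gamma, against 5106 and 3172 without it (log2 change 2.11, adjusted p = 0.00108). Ctss, the protease that trims the invariant chain, did not pass the test and read 18620 and 19973 with IFN-gamma, against 18853 and 26428 without it. It was among the brightest genes of the list on every wild-type array.

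Of 16 tested genes of MHC class I presentation and the immunoproteasome, 11 rose and 0 fell (median 1.82). Psmb8, an immunoproteasome subunit, read 2922 and 2112 with IFN-gamma, against 725.3 and 11.6 without it (log2 change 4.55), and its rise was 4.03-fold without calcitriol and at least 136-fold with it. The peptide transporter genes Tap1 (3.45) and Tap2 (2.86), the tapasin relative Tapbpl (2.90) and the immunoproteasome subunit Psmb10 (2.32) also rose. Tap2 rose 2.47-fold in the pair without calcitriol and at least 21.4-fold in the pair with it, and Tapbpl rose 4.40-fold and at least 12.7-fold in that order. The calls of Tap2 (adjusted p = 0.515) and Tapbpl (0.0542) were lost with the Gapdh ratio as a covariate. The other tested probe set of Tap1 changed by 0.75. The class I light chain B2m read 16892 and 17724 with IFN-gamma, against 10174 and 12149 without it, so its groups did not overlap but it did not pass the test (log2 change 0.64, adjusted p = 0.674). H2-D1 read 11371 and 13277 with IFN-gamma, against 13713 and 5840 without it, and its pairs moved in opposite directions. Among 14 constitutive proteasome subunits, 0 were called by limma (median 0.58), and 3 were called higher with the untreated labels exchanged. Psmb4 of this list read 2660 and 2267 with IFN-gamma, against 2491 and 968.3 without it.

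**Figure D4:**
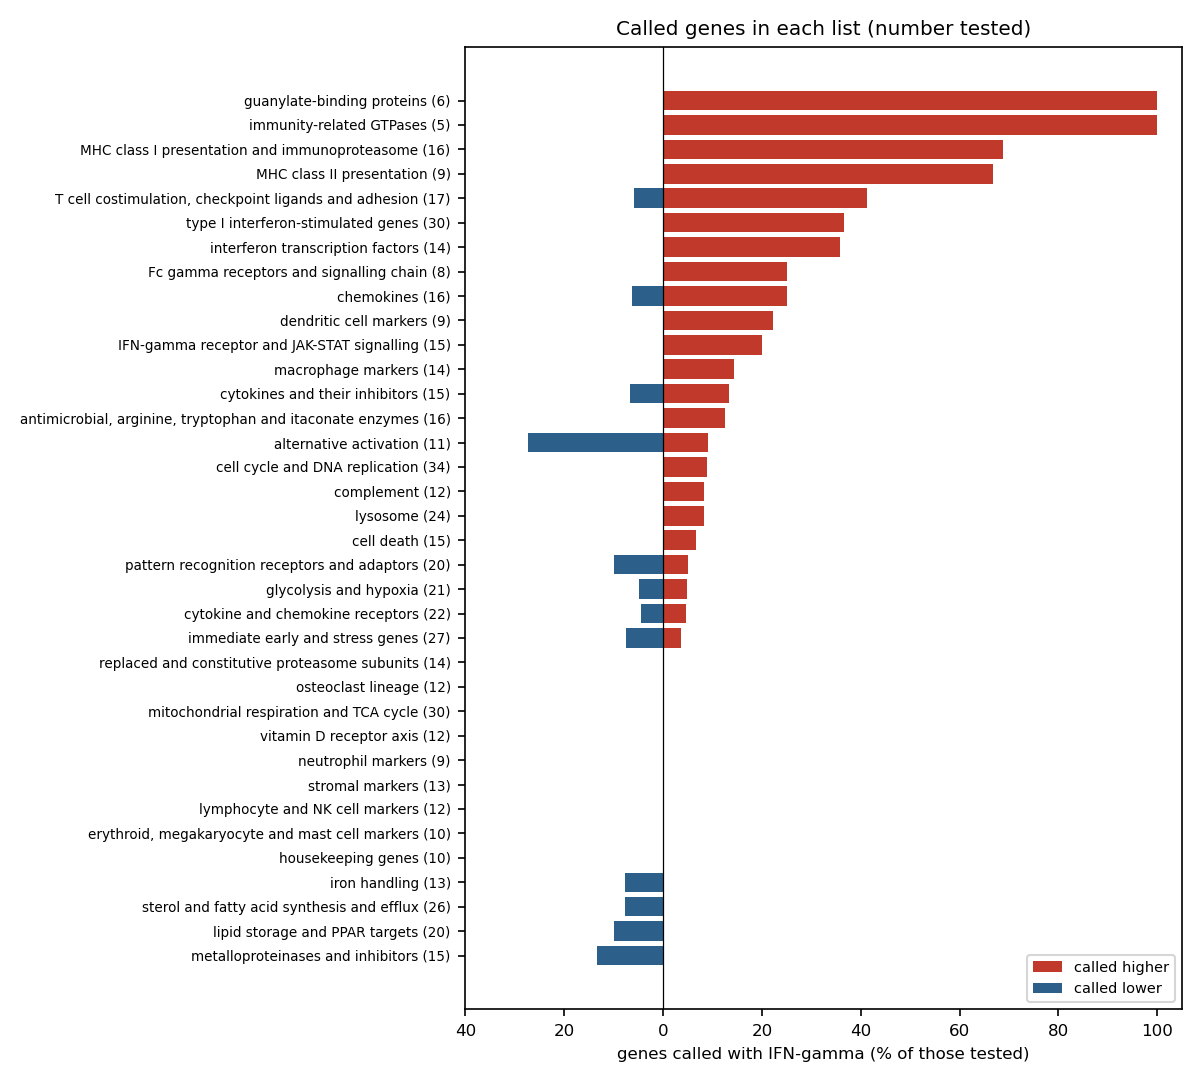
Share of tested genes called with IFN-gamma in each of 36 gene lists (percent, red to the right for higher, blue to the left for lower, number tested in parentheses). Guanylate-binding proteins and immunity-related GTPases reach 100% higher, and alternative activation has the largest share called lower, with 3 of 11.

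Genes known as targets of type I interferon moved as well. Of 30 tested, 11 rose and 0 fell (median 1.49), and 22 had both IFN-gamma arrays above both others, as 13.7% of all tested genes did. Ifit2, which binds RNA of viruses, read 1918 and 868.3 with IFN-gamma, against 67.9 and 44.3 without it (log2 change 4.56). Zbp1, a sensor of nucleic acids, read 2208 and 1021 with IFN-gamma, against 51.1 and 83 without it (log2 change 4.53). Usp18, a brake on interferon signalling, rose at least 11.9-fold, and this call was lost with the untreated labels exchanged (adjusted p = 0.106) and with the Gapdh ratio as a covariate (0.175). Samhd1 (3.06), which depletes nucleotides, and Oasl2 (2.58) were also among the largest of the list.

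Chemokine genes split, with 4 of 16 called higher and 1 called lower (median 0.39). Beside Cxcl9 the risen ones were Ccl8 (4.14), Cxcl10 (3.77) and Ccl5 (2.58). Cxcl10, which shares the receptor of Cxcl9, read 1209 and 268.4 with IFN-gamma, against 27.4 and 63.7 without it, a rise of 44.1-fold in the pair without calcitriol and of 4.21-fold in the pair with it. Ccl9 fell, with 194.4 and 403.1 with IFN-gamma, against 1291 and 2141 without it (log2 change -2.57, adjusted p = 2.85e-05).

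Of 15 cytokines and inhibitors, 2 rose and 1 fell (median 0.01). Il18bp, the decoy receptor of interleukin-18, read 1880 and 885 with IFN-gamma, against 80.3 and 107.2 without it (log2 change 3.80). Tnfsf13b, the B cell factor BAFF, rose (3.33), and the growth factor gene Igf1 fell (-1.71), a call lost with the Gapdh ratio as a covariate (adjusted p = 0.178). Tnf read 240.2 and 161.5 with IFN-gamma, against 33.8 and 125.2 without it. Its groups did not overlap, but its level was 7.11-fold higher in the pair without calcitriol and 1.29-fold higher in the pair with it, and it did not pass the test (log2 change 1.60, SE 0.61, adjusted p = 0.312), but was called with the Gapdh ratio as a covariate (adjusted p = 0.0364). Il12b read 5.1 and 73.6 with IFN-gamma, against 47.8 and 55.9 without it, dim on every array.

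Costimulation, checkpoint and adhesion genes were called higher in 7 of 17 cases and lower in 1 (median 1.32). Cd274, which encodes the checkpoint ligand PD-L1, read 1645 and 2338 with IFN-gamma, against 153.6 and 447.8 without it (log2 change 2.90). Slamf8, a macrophage receptor of the SLAM family, read 3734 and 3649 with IFN-gamma, against 244.1 and 376.7 without it (log2 change 3.61). Cd40 rose at least 11.1-fold, and the adhesion ligand Icam1 (2.35) and the costimulator Cd86 (2.05) rose. The call for Cd86 was lost with the untreated labels exchanged (adjusted p = 0.0744). Cd48, a SLAM family ligand, was the member that fell (-1.39).

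Among 8 Fc gamma receptor genes, 2 rose and 0 fell (median 0.11). Fcgr4 read 3991 and 1415 with IFN-gamma, against 328.7 and 235.3 without it (log2 change 3.10). Fcgr1, the high-affinity receptor for IgG, read 3897 and 557.8 with IFN-gamma, against 544.3 and 145.2 without it (log2 change 2.39). Fcgr3 read 4826 and 2082 with IFN-gamma, against 1697 and 1523 without it, and did not pass the test (adjusted p = 0.213), but was called with the Gapdh ratio as a covariate (adjusted p = 0.0424).

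Pattern recognition genes were called higher in 1 of 20 cases, the DNA sensor family member Mndal (2.28), and lower in 2 (median -0.10). The fallen members were C-type lectins that bind fungal and bacterial sugars or lipids. Clec4d read 972.5 and 281.9 with IFN-gamma, against 4004 and 2748 without it (log2 change -2.66, adjusted p = 2.02e-05). Clec7a, which encodes the beta-glucan receptor dectin, read 3827 and 1050 with IFN-gamma, against 5640 and 9467 without it (log2 change -1.87). It was 1.47-fold lower in the pair without calcitriol and 9.02-fold lower in the pair with it, and its call was lost with the Gapdh ratio as a covariate (adjusted p = 0.745). Cd14, the coreceptor for lipopolysaccharide, read 935.8 and 228.3 with IFN-gamma, against 2052 and 422.3 without it, and did not pass the test (log2 change -1.01, adjusted p = 0.267), but was called with the Gapdh ratio as a covariate (adjusted p = 0.0206). Tlr2 read 728.5 and 301 with IFN-gamma, against 883.1 and 386.9 without it.

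Of 12 complement genes, 1 rose and 0 fell (median 1.05). It was C1qa, with 8894 and 5283 with IFN-gamma, against 3651 and 948.6 without it (log2 change 1.88), and its call was lost with the Gapdh ratio as a covariate (adjusted p = 0.427). C1qb, its partner in the same protein, read 18802 and 11299 with IFN-gamma, against 13382 and 2238 without it, and did not pass the test (adjusted p = 0.183). With the untreated labels exchanged 5 genes of the list were called higher and 1 lower.

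Antimicrobial and metabolic enzymes of activation were called higher in 2 of 16 cases, Acod1 and Wars (2.84), a tryptophan tRNA synthetase, and lower in 0 (median 0.77). Nos2, the inducible nitric oxide synthase, was under the floor on both arrays without IFN-gamma (4.1 and 3.8) and read 5.6 and 68 with it. Only the array with IFN-gamma plus calcitriol was above the floor, and the gene was not called (adjusted p = 0.781). With the untreated labels exchanged 6 genes of this list were called higher. Of 15 cell death genes Bid rose (1.79), a mediator of mitochondrial apoptosis, and this call was lost with the Gapdh ratio as a covariate (adjusted p = 0.171).

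The largest fall was that of Mmp12, the elastase of macrophages. It read 81.9 and 149.9 with IFN-gamma, against 2331 and 5625 without it, a log2 change of -5.03 (SE 0.34, adjusted p = 8.95e-10). The level was 28.5-fold lower in the pair without calcitriol and 37.5-fold lower in the pair with it. Among 15 metalloproteinase genes, Adam8 (-1.74) fell too, and 0 rose (median -0.62).

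Lipid handling genes were called lower in 2 of 20 cases and higher in 0 (median -0.48). Fabp4, a fatty acid carrier and PPAR gamma target, read 184.8 and 285.7 with IFN-gamma, against 2110 and 2687 without it (log2 change -3.37, adjusted p = 4.16e-07). Plin2, which coats lipid droplets, read 2760 and 2686 with IFN-gamma, against 7776 and 7111 without it (log2 change -1.45). Fabp5 read 5551 and 5765 with IFN-gamma, against 10132 and 13742 without it, and Lpl read 10244 and 7209 with IFN-gamma, against 12854 and 20851 without it. Neither passed the test (adjusted p = 0.25 and 0.457), although the groups did not overlap, and with the untreated labels exchanged 5 members were called lower and 1 higher. Of 26 sterol and fatty acid genes, Hmgcs1 (-1.64) of cholesterol synthesis and the cholesterol exporter Abca1 (-1.97) fell and 0 rose. The other 2 probe sets of Abca1 disagreed in sign, at -0.97 and 0.61. The calls of Plin2 (adjusted p = 0.0539), Hmgcs1 (0.147) and Abca1 (0.0775) were lost with the Gapdh ratio as a covariate.

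Genes of alternative activation were called lower in 3 of 11 cases, Mrc1 (-1.96), Igf1 (-1.71) and Stab1 (-1.56), and higher in 1, the transglutaminase Tgm2 (2.05), with a median of -1.15. Mrc1, the mannose receptor, read 76 and 348.3 with IFN-gamma, against 357.8 and 1125 without it. The scavenger receptor Msr1 read 242.5 and 149.8 with IFN-gamma, against 260.4 and 433.1 without it, and did not pass the test.

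The iron list had 1 fall among 13 genes. Tfrc, the transferrin receptor, read 59.6 and 35.8 with IFN-gamma, against 318.6 and 435.8 without it (log2 change -3.01, adjusted p = 0.00146), while its other tested probe set changed by 0.63. The 2 probe sets of Hpgd, which breaks down prostaglandins, disagreed in the same way (-3.08 and 0.58). The calls of Tfrc (adjusted p = 0.061) and Hpgd (0.0931) were lost with the Gapdh ratio as a covariate. Malat1, a nuclear noncoding RNA, read 1103 and 1066 with IFN-gamma, against 8534 and 12824 without it (log2 change -3.27), and its other 4 probe sets ranged from -1.32 to 0.12. Of 88 called genes with several tested probe sets, 77 had all the others on the same side as the brightest, and 18 had the same call in all.

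Other large falls included secreted proteins of macrophages. Mfge8, the bridge by which phagocytes bind dying cells, read 784.8 and 1180 with IFN-gamma, against 7236 and 5319 without it (log2 change -2.69, adjusted p = 2.22e-05). Cd5l, a secreted macrophage protein of the scavenger receptor family, read 124.9 and 197.6 with IFN-gamma, against 992 and 1203 without it (log2 change -2.80). Ndrg1 (-2.82), Anxa3 (-2.72), Stap1 (-2.69), Zdhhc14 (-2.63), S100a4 (-2.59) and Maoa (-2.45) complete the 15 largest falls. Several of these sizes rest on the pair with calcitriol. Ndrg1 was 2.85-fold lower in the pair without calcitriol and at least 17.6-fold lower in the pair with it, Stap1 2.29-fold and at least 18.2-fold, and S100a4 2.88-fold and 12.6-fold. The calls of Ndrg1 (adjusted p = 0.471) and Stap1 (0.348) were lost with the Gapdh ratio as a covariate. Zdhhc14 had 5 other tested probe sets, which ranged from -2.22 to 0.64.

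Among receptors for cytokines and chemokines, 1 of 22 rose, Il4ra (1.71), and 1 fell, Il7r (-2.11), which was 2.10-fold lower in the pair without calcitriol and 8.91-fold lower in the pair with it. Both calls were lost with the Gapdh ratio as a covariate (adjusted p = 0.0767 for Il4ra and 0.0734 for Il7r). In the list of immediate early and stress genes, 1 of 27 rose and 2 fell. Dusp1, a phosphatase that shuts off stress kinases, read 94.9 and 75.7 with IFN-gamma, against 828.5 and 244.1 without it (log2 change -2.41). Fos read 473.1 and 102.3 with IFN-gamma, against 1857 and 449.8 without it (log2 change -2.05), so that each pair fell although the groups overlapped. Klf6 was called higher (2.31) on a calcitriol array that read 21.4, and its other probe sets ranged from -0.11 to 1.31. It rose 1.55-fold without calcitriol and 15.9-fold with it, and its call was lost with the Gapdh ratio as a covariate (adjusted p = 0.973).

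Lysosomal genes were called higher in 2 of 24 cases, the proteases Ctsc (2.97) and Ctsh (1.58), and lower in 0 (median 0.07). Ctsc, which activates granule proteases, read 10577 and 6842 with IFN-gamma, against 1257 and 941.8 without it, while the call of Ctsh was lost with the Gapdh ratio as a covariate (adjusted p = 0.305). Of 34 cell cycle genes, Ccnd1 (3.35), Ube2c (3.06) and Rrm2 (2.27) rose and 0 fell, and Rrm2 lost its call with the untreated labels exchanged (adjusted p = 0.154). Ccnd1 rose 3.26-fold in the pair without calcitriol and at least 32.1-fold in the pair with it, and Ube2c rose 3.18-fold and at least 22-fold in that order. The calls of Ccnd1 (adjusted p = 0.36), Ube2c (0.646) and Rrm2 (0.102) were lost with the Gapdh ratio as a covariate. Among 21 glycolysis and hypoxia genes, Pfkp (1.87), a phosphofructokinase, rose and Ndrg1 fell, both calls that were lost with the Gapdh ratio as a covariate (adjusted p = 0.106 for Pfkp and 0.471 for Ndrg1). Pkm read 3649 and 3976 with IFN-gamma, against 3333 and 364.8 without it, and missed the threshold (adjusted p = 0.0532). In the mitochondrial list 0 of 30 genes were called by limma (median 0.43), and 3 higher and 1 lower were called with the untreated labels exchanged.

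In the vitamin D receptor list 0 of 12 genes were called (median -0.02). Vdr read 82.9 and 385.9 with IFN-gamma, against 5.3 and 118.1 without it (log2 change 2.06, SE 0.92, adjusted p = 0.439). It was higher with IFN-gamma in each pair, by at least 5.35-fold and by 3.27-fold, but the groups overlapped and the array labelled untreated is the one in doubt. Cyp24a1, the enzyme that degrades calcitriol, read 43.1 and 161.7 with IFN-gamma, against 43.1 and 92.4 without it (adjusted p = 0.931). Of 12 osteoclast lineage genes 0 were called (median -0.62), and Acp5 read 248.1 and 113.7 with IFN-gamma, against 497.4 and 199.4 without it.

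Markers matched macrophages on all 4 arrays. Csf1r, the receptor for M-CSF, read 18250 and 9769 with IFN-gamma, against 17765 and 23146 without it, and Lyz2 read 19936 and 19025 with IFN-gamma, against 23369 and 26327 without it. Of 14 macrophage markers, Fcgr1 and Aif1 (1.82) rose and 0 fell. The dendritic cell list had 2 of 9 called higher, Cd83 (1.85) and Bst2 (1.74), which are also on the costimulation and interferon lists. Cd83 rose 1.64-fold without calcitriol and 7.9-fold with it, and the calls of Cd83 (adjusted p = 0.671) and Bst2 (0.577) were lost with the Gapdh ratio as a covariate. Neutrophil, lymphocyte and erythroid or mast cell lists had 0 called among 9, 12 and 10 genes, where 1.36% of all tested genes were called higher and 0.719% lower. Counts in so few genes do not tell whether such cells were present. Actb, of a housekeeping list with 0 of 10 called, read 13934 and 15358 with IFN-gamma, against 17246 and 16629 without it.

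The stromal markers summed to a lower signal on the IFN-gamma arrays. Their summed signal was 521.7 and 550.3 with IFN-gamma, against 1143 and 1632 without it. Of 13 tested markers 0 were called by limma, and the median change was -1.41. Both IFN-gamma arrays were below both others for 8 of them, as for 19.4% of all tested genes. Fn1, the brightest, read 66.5 and 113.3 with IFN-gamma, against 202 and 656.7 without it (log2 change -2.07, adjusted p = 0.0596), and Acta2 read 98.7 and 69.4 with IFN-gamma, against 126.2 and 129.1 without it. The collagen genes were dim on every array, and Pdgfra was under the floor on all 4. Whether stromal cells were present, and what part they had in the falls described above, was not tested.

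The change with IFN-gamma differed between the pairs over the array as a whole. Log2 changes in the pair with calcitriol and the pair without it correlated with Pearson's r of 0.12 and Spearman's rho of 0.08 over 18058 probe sets, which share arrays and are not independent, and with Pearson's r of 0.86 over the 316 called ones, which were chosen for their accord. A change of at least 2-fold in opposite directions was seen for 1213 probe sets. Among 3753 genes with no wild-type array under the floor and a mean wild-type signal of at least 155.3 (the pooled 75th percentile), the 8 whose pairs were furthest apart were Rsrp1, Alg5, Ehmt2, Gsr, Cd99, Cfp, Drap1 and Srsf2, with gaps of 3.77 to 4.8 log2 units. Rsrp1 read 2125 and 4153 with IFN-gamma, against 3148 and 221 without it, and Gsr, the glutathione reductase, read 338.6 and 561.7 with IFN-gamma, against 706.9 and 81.9 without it. In all 8 the calcitriol array was the lowest of the 4, down to 17.8 for Alg5, and it is the array with the Gapdh ratio of 7.67. The part of what raised this ratio and the part of calcitriol in these gaps cannot be told apart with 1 array a group.

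The same contrast in Vdr-/- macrophages served to ask whether the change depended on the genotype. Of the 142 genes that rose in wild type, 140 were also above 0 in Vdr-/-, where 46.5% of all tested genes were, and 81 were called higher there, as 1.02% of all tested genes were. Of the 75 that fell, 73 were below 0 in Vdr-/-, where 53.5% of all tested genes were, and 30 were called lower there, as 0.469% of all tested genes were. The median change of the risen genes was 2.52 in wild type and 1.98 in Vdr-/-, and that of the fallen genes -1.84 and -1.30. The genes were chosen on the wild-type change and on a spread shared by both genotypes, which the Vdr-/- calls use again. The counts called in Vdr-/- are thus favoured by the choice, and they and the medians are a description. Limma's test of the difference called 0 probe sets (0.0%), with 635 at an unadjusted p below 0.05 and a lowest adjusted p of 0.996. With the untreated labels exchanged, the same test called 101 probe sets higher in wild type and 8 lower. The Gapdh ratio then was 1.04 and 1.65 with IFN-gamma, against 4.82 and 7.67 without it, on the wild-type side, and 3.06 and 1.07 with IFN-gamma, against 1.11 and 0.853 without it, on the Vdr-/- side, so that label and ratio cannot be told apart in these calls.

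Cxcl9 changed by 7.81 in wild type and by 8.14 in Vdr-/-, where it read 4311 and 4423 with IFN-gamma, against 3.6 and 9.1 without it. Mmp12 changed by -5.03 in wild type and by -6.41 in Vdr-/-, where it read 35.1 and 48.4 with IFN-gamma, against 2872 and 4290 without it. Irf1 changed by 4.01 and 3.38 in the same order of genotypes, Gbp2 by 7.38 and 6.27, and Fabp4 by -3.37 and -2.74. The genotypes were more than 2-fold apart for 34 of the 142 risen genes and 23 of the 75 fallen ones. Ccnd1 changed by 3.35 and -0.13, Usp18 by 3.57 and 0.21, and Malat1 by -3.27 and -1.08. Changes were larger in Vdr-/- for Cxcl10 (3.77 and 5.91) and Fcrls (-2.36 and -3.92). Of the risen genes, 107 had the higher value in wild type, where they were chosen. The SE of a difference between the genotypes was 0.56 for Cxcl9.

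By position, 16 of the 142 risen genes (11.3%) were on chromosome 17, which holds the MHC and 4.99% of the tested genes, and 14 were on chromosome 11 and 13 on chromosome 5. On chromosome X 0 of 317 tested genes rose and 5 fell. No test was made of these shares.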

How the data were processed

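Per the labels, total RNA of bone marrow derived macrophages was hybridised to 8 arrays of 1 colour, and each combination of genotype, IFN-gamma and calcitriol had 1 array. The authors deposited linear probe set intensity signals, already scaled by them, since each array's 2% trimmed mean was 150.1 in the values. The sources used here do not give the software, detection calls or doses. Of 22690 probe sets, 64 controls were left out. Of the other 22626, the annotation gave 1 gene for 20380, several for 691 and none for 1555, and the last 2 kinds were tested unnamed. Low signals were raised to a floor at the 25th percentile of all arrays together (15.5) before log2, and a probe set was tested if its highest value was at least the overall median (59.1). Of their values, 15.5% were at the floor, and precision is limited by dim signals and by the few arrays.

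Tests used limma 3.58.1 in R 4.3.3 (two-sided, intensity trend, Benjamini-Hochberg over 18058 probe sets at 0.05). Terms were genotype, calcitriol within genotype and IFN-gamma within genotype (2 residual degrees of freedom). The tests were tried on simulated data in which 200 of 18058 probe sets had a wild-type log2 change of 1, 2 or 4. With noise from the spread that limma drew towards its trend, 1.49%, 56.7% and 90.9% were called in that order, with 6 false calls. With noise from the spread before that step, 0% were called at each size. A gene that was not called may thus have changed by a log2 of 1. A gene with interplay of the treatments is harder to call. A fold with an array set at the floor is a lower bound where written as such. Named were the 15 largest called rises and falls, 10 genes in every case (Cd14, Cd74, Ciita, Cxcl9, Cyp24a1, Il12b, Irf1, Nos2, Tnf, Vdr), up to 5 called and 3 uncalled members (the brightest) of each of 36 lists, and the 8 genes whose pairs were furthest apart. The contrast, members and lists were chosen with earlier results of these data known. Alternatives were other sets of arrays and terms, quantile normalization, other filters and floors, no trend, the Gapdh ratio as a covariate, exchanged labels of the untreated arrays and each pair left out. Figures were drawn with matplotlib 3.10.9.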

Additional observations from a re-analysis of the deposited data

How the results depend on the processing

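Against 316 probe sets called for IFN-gamma in wild type, wild-type arrays alone gave 18, no calcitriol block 118, 1 calcitriol effect for both genotypes 113, a stricter filter 155, no filter 1 and no intensity trend 7, while exchanged labels of the untreated arrays gave 773. Leaving out either pair gave 0 calls, in fits with 1 wild-type array a side in which the spread came from the Vdr-/- arrays alone. Quantile normalization gave 302, of which 296 were among the 316, floors at the 10th and 40th percentiles gave 224 and 345, and the Gapdh ratio as a covariate gave 258, with 185 among the 316. The difference between the genotypes had 0 calls, and 109 with the labels exchanged. The 316 calls come from a fit that pairs arrays by calcitriol, and the labels give no replicate numbers that could serve as a replicate block.

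All 113 named genes that were called kept their direction under every alternative listed above, but many lost their call. No filter lost 112 of these calls, no intensity trend 108 and wild-type arrays alone 102. Using 1 calcitriol effect for both genotypes lost 50, no calcitriol block 47 and a stricter filter 35. The floor at the 10th percentile lost 17, exchanged labels 6, and the floor at the 40th percentile and quantile normalization 2 each. The Gapdh ratio as a covariate lost 29, in a fit with 1 residual degree of freedom and a spread from the trend alone. Of 33 named genes that were not called, 13 changed sign somewhere, and the cause was not tested. Calls in the same direction were gained by 8 of the 33 with exchanged labels, among them Alg5 (adjusted p = 0.0046) and Cfp (0.000725) in limma's test. The Gapdh ratio as a covariate gained 3 and the floor at the 40th percentile 2. With the Gapdh ratio as a covariate the log2 change was 0.030 for Ctss, -0.25 for H2-D1, 0.10 for Csf1r, -0.26 for Rsrp1, -0.33 for Alg5, -0.33 for Ehmt2, -0.74 for Gsr, -1.03 for Cfp, -0.50 for Drap1 and -0.49 for Srsf2. With the pair lacking calcitriol or the pair with it left out in turn, the change ranged from -0.27 to 1.19 for H2-D1, -1.24 to 0.039 for Csf1r, -0.57 to 4.23 for Rsrp1, -0.26 to 4.01 for Alg5, -0.57 to 3.28 for Ehmt2, -1.06 to 2.78 for Gsr, -0.26 to 3.57 for Cd99, -0.71 to 3.08 for Cfp, -0.86 to 2.92 for Drap1, -0.90 to 2.87 for Srsf2, -0.87 to 0.91 for Ifngr1 and -1.62 to 0.40 for Il12b, which was 0.072 with the floor at the 40th percentile.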

Other observations

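Of the genes called with IFN-gamma, 65 of the 142 that rose and 57 of the 75 that fell were on none of the gene lists. The genes named here are the 10 largest of these in each direction beyond the 15 largest rises and falls, and they were chosen after their values were seen. Aoah, an enzyme that strips acyl chains from lipopolysaccharide, read 625.5 and 666.9 with IFN-gamma, against 60.6 and 46.4 without it (log2 change 3.61, limma's adjusted p = 1.51e-05). Naaa (3.59), a lysosomal amidase, Itgb7 (3.58), an integrin chain, Dnase1l3 (3.37), a secreted nuclease, Plaat3 (3.32), Lrrc8c (3.23), Bst1 (3.18), Smpdl3b (3.10), Slco3a1 (3.07) and D17H6S56E-5 (3.07) also rose. The calls of Dnase1l3, Lrrc8c and D17H6S56E-5 were lost when the 2 untreated labels were exchanged (adjusted p = 0.0807, 0.062 and 0.318), and that of Smpdl3b with the Gapdh ratio as a covariate (0.0935). Slco3a1 rose at least 23.1-fold in the pair without calcitriol and 3.07-fold in the pair with it, and D17H6S56E-5 at least 24.6-fold and 2.86-fold.

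Anxa1, a mediator of the resolution of inflammation, read 1304 and 1054 with IFN-gamma, against 4482 and 7386 without it (log2 change -2.30, limma's adjusted p = 0.000125). Rnf128, a ubiquitin ligase, read 280.8 and 377.5 with IFN-gamma, against 1446 and 1667 without it (log2 change -2.25). Niban2 (-2.38), Fcrls (-2.36), Clec4a2 (-2.36), Padi2 (-2.23), the histone gene H1f2 (-2.15), Rhob (-2.09), Pmp22 (-2.06) and Fam20c (-2.05) also fell, and in each of them both IFN-gamma arrays were below both others. The 3 tested probe sets of H1f2 disagreed, as the others changed by -2.34 and 1.03. Clec4a2 was 1.42-fold lower in the pair without calcitriol and 18.4-fold lower in the pair with it, and Fam20c 10.6-fold and 1.63-fold. The calls of Clec4a2 (adjusted p = 0.721) and Padi2 (0.119) were lost with the Gapdh ratio as a covariate.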
